A study of Mus musculus with 48 samples.

Results

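Among 12 control livers taken on the day of birth (postnatal day 0, PND0), 4 had low summed levels of fatty acid oxidation, lipid droplet and gut-list genes. They are control male replicates 10 and 11 and control female replicates 14 and 19. The other 8 PND0 controls, 4 males and 4 females, were compared with them, out of 48 libraries in the series. The 4 were chosen by these measured sums, so the split comes from the expression values themselves. Differences in gene levels between the 4 and the 8 are therefore described in every liver and carry no test. Only the total count per library was tested between them.

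The series measured polyadenylated RNA by sequencing in livers of hybrid pups, with 1 library per pup, from C57Bl/6J dams and CAST/EiJ sires. All control dams in this comparison drank water with 0 ppm cadmium chloride, and exposed dams drank 50 ppm from 4 weeks of age, through mating at 9 weeks, until pups were at PND10. All were fed the AIN-93G diet. The 12 exposed PND0 livers (6 females, 6 males) and the 12 exposed PND21 livers were not used to choose the 4, so tests were made in them. No comparison by litter, feeding or hours since birth was made, since the sources used here do not give them.

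Around birth the liver passes from a fetal supply of glucose to milk fat. Fatty acids enter mitochondria through the carnitine shuttle, are shortened by beta-oxidation and are turned in part into ketone bodies, and the nuclear receptor PPARA drives many of these genes. Insulin-responsive genes of glycolysis and fat synthesis are usually low in the suckling liver.

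The 12 control libraries had between 58.7 and 83.2 M (mega) counts. Totals were 65.6 ± 11.7 M (SD, n = 4) in the 4 and 68.4 ± 8.06 M (SD, n = 8) in the others, a difference of -2.74 M (two-sided exact permutation test, p = 0.618). Control female replicate 24 stood apart from the other 7 of the 8 in many lists, among them the glucagon-response sum. Control male replicate 2 had a skeletal muscle marker sum of 1990 CPM (counts scaled to the same library total), control female replicate 21 had 212 CPM, and control female replicate 23 had a pancreas marker sum of 396 CPM. In the 4, these sums were 4.98 to 10.8 CPM for muscle and 11.2 to 13.5 CPM for pancreas, and Myod1 and the trypsinogens Prss1 and Prss2 were at 0 counts. Control male replicate 3, one of the 8, has PND0 in its title and PND21 in its age label, and was used as PND0. Albumin (Alb), a defining hepatocyte product, was at 41990 CPM or more in each of the 12.

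The summed level of the 34 fatty acid oxidation genes, in CPM of library totals, was 8304 and 8611 in male replicates 10 and 11. It was 9723 and 7721 in female replicates 14 and 19, and 13240 to 20370 in the other 8. The member just inside the split was thus female replicate 14 at 9723 CPM, and the nearest liver outside it was female replicate 23 at 13240 CPM. Lipid droplet genes summed to 749 to 956 CPM in the 4 and to 1301 to 1920 CPM in the 8. The gut list summed to 27.7 to 37.7 CPM against 178 to 1114 CPM, with Apoa4, which liver makes too, among its genes. Without Apoa4 the gut list was 14.3 to 24.6 CPM in the 4 and 29 to 59.6 CPM in the 8. These sums were used by the rule and do not overlap.

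**Figure D1:**
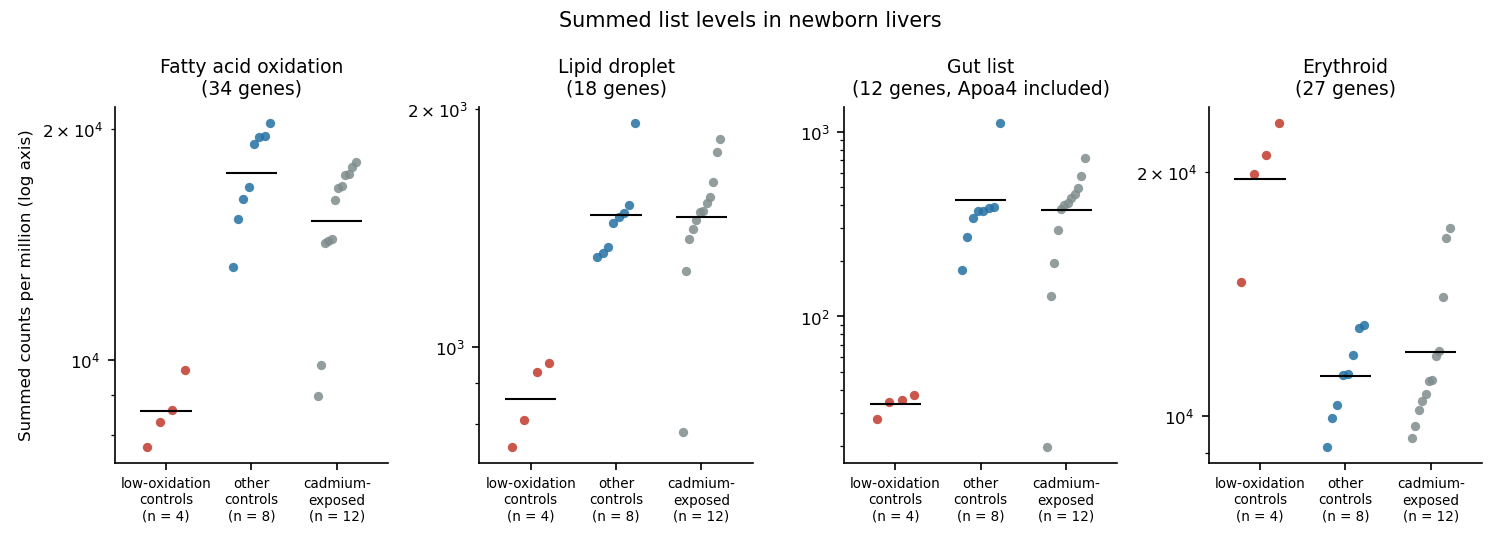
Summed CPM of library totals for 4 gene lists in newborn livers, on log axes. Each point is 1 liver and each line a group mean; the fatty acid oxidation sums of the 4 low-oxidation controls lie between 7721 and 9723, below the other controls at 13240 and above, and exposed male replicate 8 and female replicate 18 lie at 8993 and 9870.

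Of 18593 genes that passed the low-count filter, 802 (4.31%) were lower in all 4 livers than in all 8, and 832 (4.47%) were higher in all 4, or 8.79% in either direction. With a difference of mean log2 CPM of at least 1 as well, that is 2-fold, 194 genes (1.04%) were lower and 234 (1.26%) higher. Leaving out control female replicate 24 raised the counts without a fold limit to 1442 lower and 1525 higher. Without male replicate 10, 1270 genes were higher. Below, "lower" and "higher" are used of the 4 against the 8 only where the groups do not overlap. Counts per list are to be read against the shares over all genes, 4.31% lower and 4.47% higher. Values of the 4 are given in the order male 10, male 11, female 14 and female 19, in CPM scaled by TMM.

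Genes of beta-oxidation were used to choose the 4, so their count is a description. Of 34, 24 were lower, 0 were higher and 10 overlapped, with a median difference of -0.99 (log2) against 0.017 over all genes. Cpt1a, the carnitine palmitoyltransferase that admits fatty acids to mitochondria, was at 598, 606, 569 and 511 CPM. In the other 8 it ranged from 1027 to 1330 (median 1094) CPM. Ehhadh, the peroxisomal bifunctional enzyme, was at 225, 239, 330 and 186 CPM against 540 to 1609 (median 1198) CPM. The widest difference in this list was in Cyp4a14, a fatty acid omega-hydroxylase, at 446, 532, 780 and 350 CPM against 2011 to 3767 (median 2950) CPM. Reads of the close relatives Cyp4a10, Cyp4a14 and Cyp4a31 may be split between them, so these values are uncertain.

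Ketone body genes and peroxisomal genes outside that list were also low, in part. Of 8 ketone body genes, 3 were lower and 1 higher (median -0.34). Bdh1, which makes beta-hydroxybutyrate, was at 206, 177, 219 and 187 CPM against 231 to 868 (median 799) CPM. Oxct1, the enzyme that lets tissues use ketone bodies and that mature liver lacks, went the other way, at 44.8, 40, 44.5 and 39.2 CPM against 23.3 to 31.5 (median 27.4) CPM. Of 19 peroxisome genes 8 were lower and 0 higher (median -0.49). Slc27a2, which activates very long chain fatty acids, was at 592, 580, 645 and 549 CPM against 1407 to 2110 (median 1745) CPM.

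The receptors and hormones of fasting did not separate the groups in the same way. Of 16 fasting and PPARA regulators, 1 (Creb3l3) was lower and 15 overlapped, and the median difference was 0.45. Ppara itself was at 107, 153, 106 and 109 CPM, within the 77.2 to 151 CPM of the 8 apart from male 11. The PPARA targets Pdk4, which blocks glucose oxidation, and Angptl4, a lipase inhibitor, also overlapped. Pdk4 was at 194, 207, 192 and 59.3 CPM against 47.5 to 227 (median 91.7) CPM, and Angptl4 at 200, 185, 192 and 176 CPM against 89.9 to 194 (median 110) CPM. For Angptl4 the overlap came from control female replicates 23 and 24, at 177 and 194 CPM. Fgf21, a fasting hormone of the liver, was at 0.638, 0.152, 0.457 and 1.28 CPM against 0.375 to 15.6 (median 5.08) CPM. Of 20 gluconeogenesis and glucagon-response genes, Gcgr (the glucagon receptor) was lower, Pck2 was higher and 18 overlapped. Pck1, the cytosolic enzyme that commits to glucose synthesis, was at 2610, 1980, 1560 and 1470 CPM against 1308 to 4601 (median 2329) CPM.

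Some lipoprotein genes were lower. Of 19 genes of lipid export, 6 were lower, 0 were higher and 13 overlapped, with a median difference of -0.44, and the summed level was 20680 to 24160 CPM against 30960 to 36910 CPM. Apoa4, an apolipoprotein of fat-rich particles that the rule also used, was at 13.7, 17.3, 10.8 and 16.4 CPM against 152 to 1059 (median 317) CPM. Apoe, which clears lipoprotein remnants, was at 7520, 5630, 6690 and 7020 CPM against 10340 to 12910 (median 11390) CPM. Plin2, which coats lipid droplets and belongs to a list the rule used, was at 171, 241, 225 and 150 CPM against 348 to 896 (median 562) CPM.

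Some genes of fat synthesis, glycolysis, glycogen and sterols were higher, while most overlapped. The lipogenesis sums were 2940 to 3114 CPM in the 4 and 2606 to 4268 CPM in the 8. Glycolysis sums were 8541 to 9672 against 7131 to 8652 CPM, and sterol sums 1603 to 2126 against 1252 to 2723 CPM. These 3 sums overlapped, and the mean of the 4 was 0.837, 1.18 and 0.866 times that of the 8. Of 22 lipogenesis genes, 4 were higher (Scd1, Scd2, Thrsp and Acly), 1 was lower (Elovl2) and 17 overlapped, with a median of -0.04. Scd1, the desaturase that makes monounsaturated fatty acids, was at 273, 300, 317 and 286 CPM against 17.3 to 42.9 (median 21.8) CPM. Its mean was 294 ± 18.9 CPM (SD, n = 4) against 25.3 ± 8.54 CPM (SD, n = 8). Of 20 glycolysis genes 6 were higher and 0 lower, with a median of 0.26. Pfkfb1, the liver enzyme that sets the level of a potent activator of glycolysis, was at 99.6, 93.6, 118 and 89 CPM against 27.7 to 52.3 (median 32.8) CPM. Of 16 glycogen genes 4 were higher (Gbe1, Pygl, Ppp1r3b and Gyg) and 1 lower (Gaa). The glycogen sum was 1251 to 1471 CPM against 834 to 1222 CPM. Gbe1, the glycogen branching enzyme, was at 98.7, 83.9, 106 and 74 CPM against 28.7 to 53.1 (median 38.9) CPM. Of 23 sterol genes 5 were higher, 0 lower and the median was 0.07. Dhcr7, the last enzyme of cholesterol synthesis, was at 51.3, 48, 64.6 and 72.7 CPM against 16 to 35.9 (median 32) CPM.

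**Figure D2:**
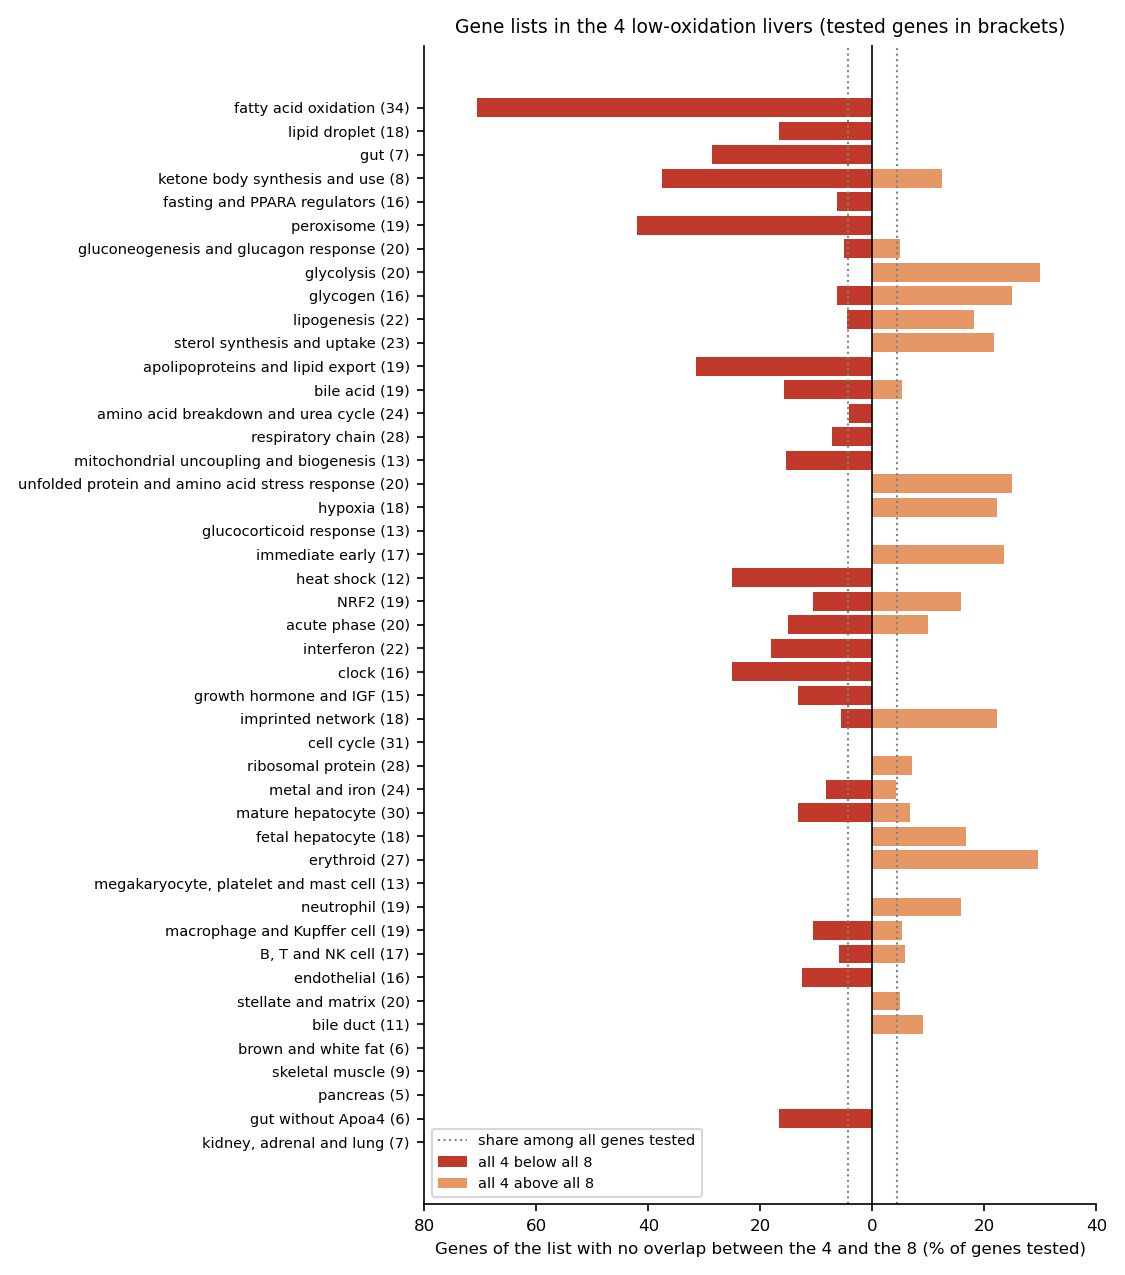
Share of the tested genes of each list that lay below (left) or above (right) all other controls in all 4 low-oxidation livers. Dotted lines give the shares over all genes, 4.31% and 4.47%; fatty acid oxidation, lipid droplet and gut lists were used to choose the livers.

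Amino acid synthesis genes of the ATF4 response, which cells use when amino acids run short, were among the higher genes. Of 20 genes of the unfolded protein and amino acid stress list, 5 were higher (Psat1, Chac1, Asns, Phgdh and Ppp1r15a), 0 were lower and the median was 0.26. The list as a whole overlapped in its sum. Asns, asparagine synthetase, was at 159, 199, 168 and 171 CPM against 58.7 to 101 (median 66.1) CPM. Psat1, of serine synthesis, was at 247, 235, 263 and 264 CPM against 43.7 to 101 (median 78.2) CPM. Chac1, which breaks down glutathione, was at 1.72, 5.73, 2.88 and 1.78 CPM against 0.124 to 0.858 (median 0.472) CPM.

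Promoter sequences of 4 of the higher genes are shown because they share letters known from C/EBP-ATF composite elements, which ATF4 binds. The genes are Asns, Chac1, Slc7a11 (the cystine transporter) and Pycr1 (of proline synthesis), and Slc7a11 and Pycr1 were chosen after their values were seen. Slc7a11 was at 0.724, 1.35, 0.389 and 0.992 CPM against 0.0309 to 0.361 CPM, and Pycr1 at 6.19, 5.07, 4.76 and 8.01 CPM against 0.609 to 1.86 CPM. RefSeq (GRCm38.p6) gives the 250 bases before each gene's start at chr6:7693210-7693459 (minus strand), chr2:119350992-119351241 (plus strand), chr3:50443614-50443863 (minus strand) and chr11:120643749-120643998 (minus strand). Each is printed 5′ to 3′ on its gene's strand, with matches to TGATGNAA or its reverse complement TTNCATCA in capitals.
Asns: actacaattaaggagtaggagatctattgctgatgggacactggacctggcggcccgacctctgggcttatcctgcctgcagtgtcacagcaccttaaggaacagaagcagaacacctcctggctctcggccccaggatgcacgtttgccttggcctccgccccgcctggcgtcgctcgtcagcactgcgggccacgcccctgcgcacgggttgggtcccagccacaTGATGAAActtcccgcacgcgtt
Chac1: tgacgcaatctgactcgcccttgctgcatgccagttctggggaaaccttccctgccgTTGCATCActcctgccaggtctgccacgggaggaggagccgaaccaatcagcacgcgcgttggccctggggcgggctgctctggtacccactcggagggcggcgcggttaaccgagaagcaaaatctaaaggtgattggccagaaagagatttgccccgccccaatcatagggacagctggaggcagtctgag
Slc7a11: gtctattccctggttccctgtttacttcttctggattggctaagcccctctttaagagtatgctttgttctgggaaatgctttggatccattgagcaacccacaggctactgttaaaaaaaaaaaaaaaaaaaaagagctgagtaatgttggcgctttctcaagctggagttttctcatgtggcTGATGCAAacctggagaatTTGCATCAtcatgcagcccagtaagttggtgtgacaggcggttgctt
Pycr1: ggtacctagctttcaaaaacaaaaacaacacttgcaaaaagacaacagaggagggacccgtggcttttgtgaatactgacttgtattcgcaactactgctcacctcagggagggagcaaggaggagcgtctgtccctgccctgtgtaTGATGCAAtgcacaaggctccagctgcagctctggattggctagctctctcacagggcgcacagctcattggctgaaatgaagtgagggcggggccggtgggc
Asns, Chac1 and Pycr1 had 1 match each and Slc7a11 had 2. Windows of 300 bases, 250 before and 50 after the start, were searched on both strands for all genes in the RefSeq table. Shares are given for the 234 genes at least 2-fold higher, the 194 at least 2-fold lower and all genes tested, where a promoter sequence was found. A match was found in 8 of 152 such higher genes (5.26%), 3 of 125 lower genes (2.4%) and 353 of 12197 genes tested (2.89%). The nuclear receptor core AGGTCA was in 16.8% of lower, 17.1% of higher and 15.6% of all promoters. The D-box TTATGNAA, bound by clock factors such as Dbp, was in 5.6% of lower, 3.29% of higher and 2.72% of all promoters, and the DR1 repeat of the core was in 0 lower and 0 higher ones. The 4 genes shown were picked from the 8 higher genes with a TGATGNAA match, and Psat1 was not among the 8. These motifs were chosen after values were seen, and a match describes letters only.

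Clock outputs were low in part: of 16 clock genes 4 were lower (Dbp, Tef, Per3 and Nr1d1), 0 were higher and the median was 0.01. Dbp, a D-box factor whose level follows the time of day, was at 2, 1.91, 2.03 and 2.1 CPM against 4.36 to 27 (median 13.7) CPM. The sources used here give no time of day for dissection. Immediate early genes, which rise within minutes of stimulation, gave 4 higher of 17, with Junb at 40.3, 20.1, 14.8 and 19.9 CPM against 8.13 to 14.3 CPM. Of 18 hypoxia genes 4 were higher and 0 lower (median 0.19), among them Pdk1 at 92.6, 81, 103 and 83.9 CPM against 34.3 to 55.8 CPM. Heat shock genes gave 3 lower of 12, and interferon genes 4 lower of 22. Of 13 glucocorticoid-response genes none separated the groups, though the median difference was 0.65. The list's sums were 2071 to 3144 CPM in the 4 and 1331 to 4454 (median 1625) CPM in the 8. The top of the 8 was control female replicate 24 at 4454 CPM, with the next at 1974 CPM.

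A few growth and imprinted genes separated the groups. Of 15 growth hormone and IGF genes 2 were lower and 13 overlapped, beside 4.31% lower over all genes. Igfbp2, which binds insulin-like growth factors, was at 583, 419, 561 and 654 CPM against 2197 to 3077 (median 2542) CPM. Of 18 genes of the imprinted network 4 were higher (Cdkn1c, Grb10, Meg3 and Dlk1), 1 was lower (Slc38a4) and 13 overlapped, with a median of 0.13. Cdkn1c, a brake on the cell cycle, was at 163, 306, 210 and 180 CPM against 28 to 72.5 (median 48.7) CPM. Plagl1, the gene named Zac1 in the study's title, was at 70.6, 53.3, 55.4 and 50.7 CPM and overlapped with the 46.7 to 78 CPM of the 8. Igf2 and H19 overlapped too, as did all 31 cell cycle genes.

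The summed level of red cell genes was higher in the 4 livers, while most single genes overlapped. The sum of 27 erythroid markers was 14630, 22980, 21020 and 19890 CPM against 9176 to 12950 CPM in the 8. Of these genes 8 were higher, 0 were lower and 19 overlapped, and the median was 0.52. Hbb-bs, an adult beta-globin, was at 3840, 5960, 5580 and 4790 CPM against 2097 to 2954 (median 2583) CPM. In bulk liver, more cells of a type and more RNA per cell cannot be told apart. The part of red cell RNA in the other differences was not tested. Neutrophil markers gave 3 higher of 19, with overlapping sums of 2615 to 4795 CPM and 2810 to 4135 CPM. Of 19 macrophage and Kupffer cell genes 2 were lower (Marco and Vsig4) and 1 was higher (Hmox1). Endothelial, stellate, bile duct and lymphocyte lists had 1 or 2 genes apart each, beside 8.79% of all genes in either direction. Of 30 mature hepatocyte genes 4 were lower and 2 higher, and of 18 fetal hepatocyte genes 3 were higher. Alb and Afp (alpha-fetoprotein) overlapped.

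Among secreted plasma proteins and detoxifying enzymes, the genes that separated the groups were mixed in direction. Of 20 acute phase genes 3 were lower (Hp, Hpx and Lbp), 2 were higher (Stat3 and Saa3) and the median was 0.41. The acute phase sum was 37120 to 46240 CPM in the 4 and 23950 to 48340 (median 29420) CPM in the 8. The top of the 8 was control female replicate 23 at 48340 CPM, with the next at 33790 CPM. Hp, haptoglobin, which binds free hemoglobin, was at 1530, 1100, 1230 and 1320 CPM against 2306 to 4123 (median 2691) CPM. Hpx, hemopexin, which binds free heme, was at 1090, 1260, 934 and 1090 CPM against 1792 to 2209 (median 1989) CPM. Hmox1, which degrades heme, was higher, at 154, 276, 211 and 153 CPM against 70.5 to 107 (median 78.8) CPM. Each of these 3 heme-handling genes separates the groups, though they come from different lists. In all 12 exposed newborn livers Hp and Hpx lay below the median of the 8 and Hmox1 above it. These directions are thus not particular to the 4. The same held for other named genes. Asns, Chac1, Gbe1, Bnip3 and Ndufa4l2 lay above that median in 12 of 12 exposed livers. Apoe, Bdh1, Dbp, Gcgr, Igfbp2, Cyp2b9 and Mettl7b lay above it in 0 of 12. Not all did so: Apoa4 lay above it in 8 of 12, and Aqp8 and Cyp2c70 in 3 of 12. Of 19 NRF2 genes 3 were higher and 2 lower. Of 24 metal and iron genes 2 were lower (Tfr2 and Ftl1) and 1 was higher (Slc39a14), beside 4.31% and 4.47% over all genes. Hamp and Mt1 overlapped: Hamp was at 19.6, 50.8, 13.8 and 53.6 CPM against 7.42 to 139 CPM.

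Of 19 bile acid genes 3 were lower and 1 was higher, with a median of -0.28. Cyp7a1, the rate-limiting enzyme of bile acid synthesis, was at 338, 257, 204 and 143 CPM against 41.9 to 124 (median 92) CPM. Nr0b2, the repressor SHP that holds Cyp7a1 down, was at 3.67, 1.76, 5.59 and 2.32 CPM against 5.6 to 26.2 (median 19.5) CPM. The highest of the 4 thus lay just under the lowest of the 8 for Nr0b2. Of 13 genes of mitochondrial uncoupling and biogenesis 2 were lower (Slc25a4 and Slc25a5, exchangers of ADP and ATP), and the list's sums of 1558 to 1719 CPM and 1960 to 3371 CPM did not overlap. In the respiratory chain 2 of 28 genes were lower, and in amino acid breakdown and the urea cycle 1 of 24. Of 28 ribosomal protein genes 2 were higher. The counts of these last 3 lists are near the shares over all genes, 4.31% lower and 4.47% higher, and are not read as a trait of the 4. Fat, kidney, adrenal and lung, muscle, pancreas and megakaryocyte lists had 0 genes apart.

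The genes furthest below the other controls included enzymes of hormone and foreign compound metabolism. By the naming rule, 12 genes were taken on each side, of which 12 lower and 11 higher are named. The lower ones were Dio1, Sult2a5, Sult2a6, Sult2a1, Cyp2b9, Apoa4, Sult2a2, Mettl7b, Sult1c2, Cyp1a2, Sel1l3 and Cyp1a1. Dio1, the deiodinase that activates thyroid hormone, was at 0.0172, 0.0169, 0.0508 and 0.254 CPM against 0.332 to 13.6 (median 4.87) CPM. Sult2a1, a sulfotransferase of steroids and bile acids, was at 15, 7.18, 9.77 and 6.03 CPM against 147 to 362 (median 232) CPM. The Sult2a genes are near-identical copies, so the split of reads among them is uncertain. Nr1i3, the receptor CAR that drives Cyp2b genes, was at 21.5, 19.6, 34.4 and 30.8 CPM against 51 to 133 (median 104) CPM, and was chosen after its values were seen. The higher ones were Dnah17, Aldh1l2, Scd1, Hkdc1, Ndufa4l2, Cacna1b, Aqp8, Serpina5, Cyp2c70, Slc3a1 and Mroh2a. Ndufa4l2 was at 29.9, 11.2, 17 and 15.5 CPM against 1.39 to 4.99 (median 1.85) CPM. In the exposed newborn livers it was at 6.79 to 38.8 CPM, so its high level is not particular to the 4. Dnah17, an axonemal dynein, was at 34.5, 30, 37.2 and 28 CPM against 0.78 to 3.65 (median 1.75) CPM. Aqp8, a water channel, was at 160, 174, 189 and 175 CPM against 4.86 to 46.5 (median 35.5) CPM. Cyp2c70, the mouse bile acid hydroxylase, was at 341, 353, 431 and 306 CPM against 15.3 to 120 (median 85.5) CPM.

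**Figure D3:**
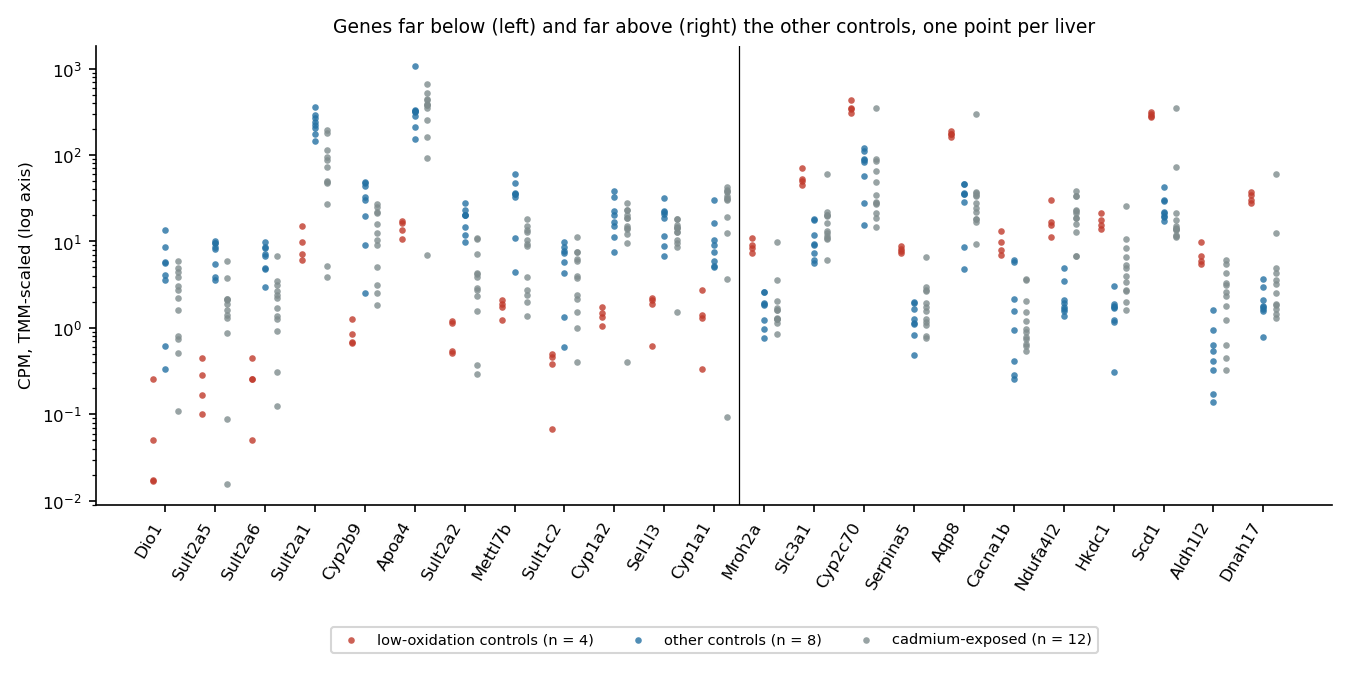
TMM-scaled CPM on a log axis of 12 genes far below and 11 far above the other controls, with 1 point per newborn liver. For Scd1 the 4 low-oxidation controls lie at 273 to 317 CPM, the other controls at 17.3 to 42.9 CPM and the exposed livers at 11.2 to 350 CPM.

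The exposed newborn livers were used to ask whether the same genes vary with the oxidation sum in livers that did not set the split. Each gene was fitted against log2 of that sum in the 12 exposed PND0 livers, with sex as a term, by edgeR's quasi-likelihood test. A gene that rises has a positive slope, in log2 per doubling of the sum. The sum was 8993 CPM in exposed male replicate 8, 9870 CPM in exposed female replicate 18 and 14210 to 18120 CPM in the other 10. Of 18091 genes, 679 (3.75%) rose and 516 (2.85%) fell with the sum at an adjusted p under 0.05. Without exposed male replicate 8 the counts were 192 (1.05%) and 92 (0.503%). Without it and female replicate 18 they were 0 and 0, with 1976 genes at an unadjusted p under 0.05, so the calls rest on these 2 livers. Exposed female replicate 18 had a pancreas marker sum of 155 CPM, with a median of 8.26 CPM over the 12. Exposed female replicate 13, highest in the oxidation sum, had a skeletal muscle marker sum of 613 CPM, with a median of 5.41 CPM. The part of such RNA in the slopes was not tested.

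Genes of the 3 lists used by the rule were set aside for the next counts. Of 175 other genes that were at least 2-fold lower in the 4, 172 were tested, 94 rose with the sum (54.7%) and 0 fell, with a median slope of 1.29. Of 234 genes at least 2-fold higher, 209 were tested, 85 fell (40.7%) and 1 rose, with a median slope of -1.02. The median slope over all genes was -0.01. Without exposed male replicate 8, 42 of 173 lower genes rose and 17 of 212 higher genes fell. Without both low livers none passed, 152 of 173 lower genes had a positive slope (87.9%, median 1.04) and 172 of 207 higher genes a negative one (83.1%, median -1.04). Among all genes 49.5% of slopes were then positive.

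Several genes outside the rule's lists had steep slopes. Cyp4a31, a fatty acid hydroxylase that may share reads with Cyp4a10 and Cyp4a14 of the sum, rose by 2.51 ± 0.17 (SE) per doubling (adjusted p = 1.07e-05, edgeR's quasi-likelihood test). Ephx2, which hydrolyses fatty acid epoxides, rose by 2.05 ± 0.16 (adjusted p = 1.98e-05, same test). Scd1 fell, with a slope of -4.11 ± 0.46 (adjusted p = 0.000422, same test), and Asns with -0.84 ± 0.1 (adjusted p = 0.000353, same test). These 4 also passed without exposed male replicate 8, and none passed without both low livers. Scd1 was 350 CPM at its highest and 14.1 CPM at the median of the exposed livers. Of 20 unfolded protein and amino acid stress genes 7 fell and 0 rose, of 17 immediate early genes 7 fell and 0 rose, and of 22 lipogenesis genes 21 were tested, 5 fell and 2 rose. Without exposed male replicate 8, these falls numbered 1, 0 and 2. Of 28 respiratory chain genes 14 rose, and 1 without that liver. Of 19 peroxisome genes 7 rose with and 7 without it. Of 27 erythroid genes 4 fell (Alas2, Hbb-bs, Hba-a1 and Hbb-bt), and 0 without it.

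Across the 175 lower and 234 higher genes, each exposed liver was also placed by whether its value was nearer the mean of the 4 or of the 8. Exposed male replicate 8 was nearer the 4 for 84.6% of the lower and 76.5% of the higher genes. Exposed female replicate 18 was nearer for 61.7% and 58.5%. The other 10 exposed livers were nearer for 4.57% to 37.1% of the lower and 12.4% to 41.9% of the higher genes.

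**Figure D4:**
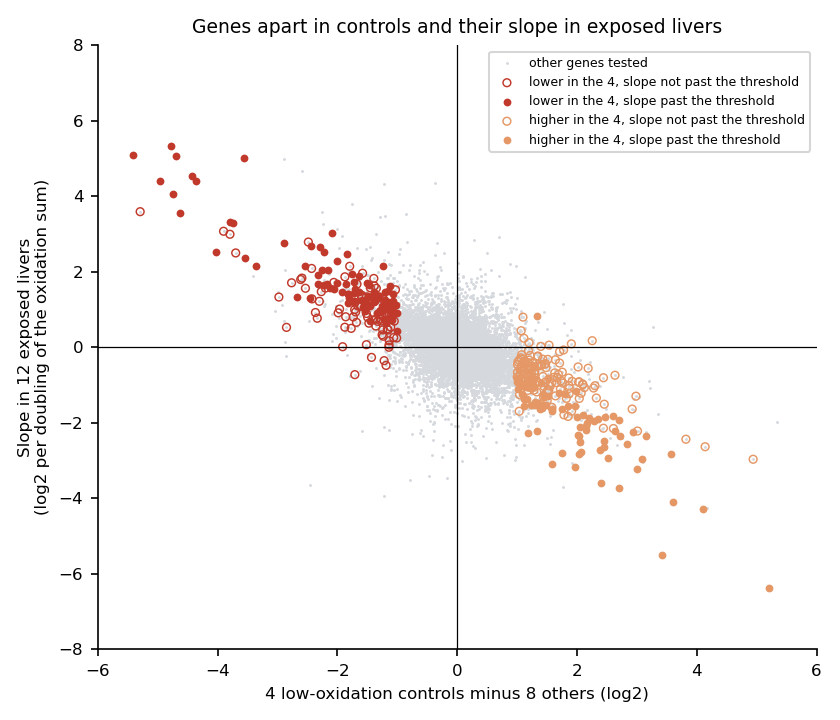
Difference between the 4 low-oxidation controls and the other 8 (log2, horizontal) against the slope on the oxidation sum in 12 exposed newborn livers (vertical), 1 point per gene, without genes of the rule's lists. Filled points are genes at least 2-fold apart whose slope passed, among them 94 lower genes that rose and 85 higher genes that fell. Without exposed male replicate 8 and female replicate 18 no slope passed.

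Age was compared in the 24 exposed livers, PND21 minus PND0, which the rule did not use either. Exposure ended at PND10, so age, the end of exposure and any lasting effect of cadmium cannot be told apart in this comparison. Of 18854 genes, 7117 (37.7%) rose and 6994 (37.1%) fell with age by edgeR's quasi-likelihood test. Of the genes at least 2-fold lower in the 4 and outside the rule's lists, 173 were tested, 108 rose (62.4%) and 25 fell (14.5%), with a median of 0.73. Of the higher genes 224 were tested, 122 fell (54.5%) and 55 rose (24.6%), with a median of -0.9. Dio1 rose by 5.28 (log2) and Dnah17 fell by 7.96 on the log2 scale. Not all followed this order: Scd1, higher in the 4, rose by 2.07, and Cyp2c70 rose by 3.77. Cyp1a1, lower in the 4, fell by 5.84 on the log2 scale. All 27 erythroid genes fell with age (median -3.91), and 1 of 23 sterol genes rose while 19 fell (median -1.64).

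**Figure D5:**
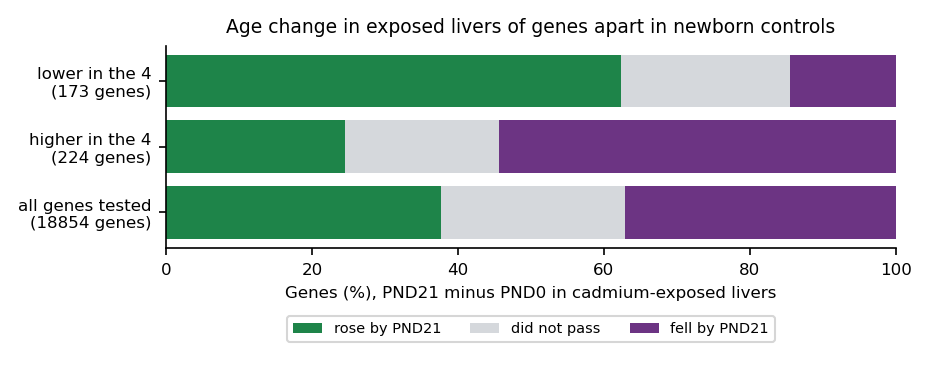
Share of genes that rose, fell or did not pass the test between PND0 and PND21 in 24 exposed livers. Of genes at least 2-fold lower in the 4 controls 62.4% rose, of genes at least 2-fold higher in them 54.5% fell, and of all genes 37.7% rose and 37.1% fell.

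The 4 livers belong to the control group of the cadmium comparison at birth, so cadmium minus control at PND0 was fitted with and without them. With all 24 livers, 364 of 19084 genes (1.91%) were called higher and 216 (1.13%) lower in exposed livers. Without the 4, 291 of 19410 genes (1.5%) were higher and 287 (1.48%) lower. These fits share control livers with the split, so their values are only set side by side. Leaving out the 4 raises the difference for genes higher in them and lowers it for genes lower in them. The direction of such shifts was therefore fixed by the choice of livers. Of 34 fatty acid oxidation genes 0 passed in either fit, with medians of 0.07 and -0.13. Of 19 hypoxia genes 10 rose in the fit with all livers and 14 without the 4, and of 20 glycolysis genes 11 and 13. Bnip3, a mitophagy receptor induced in low oxygen, was 0.45 ± 0.24 (log2, SE) with the 4 and 0.96 ± 0.18 without them, and passed only without them. The glucose transporter Slc2a1 was 0.37 ± 0.2 and 0.79 ± 0.15, and passed only without them. Cdkn1c changed sign, from -0.33 ± 0.36 to 0.72 ± 0.21, and passed in neither fit. Bnip3, Slc2a1 and Cdkn1c were higher in the 4, so the direction of their shifts was fixed in advance. The hypoxia genes called only without the 4 (P4ha2, Pdk1, Bnip3 and Slc2a1) were also all higher in the 4. Hamp, the iron hormone hepcidin, fell in both, with -4.57 ± 0.62 and -4.22 ± 0.63, and the metallothionein Mt1 fell in both, with -1.81 ± 0.23 and -1.7 ± 0.26.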

How the data were processed

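Liver RNA of mouse pups was measured in 48 libraries, 8 groups of 6 by age, dose and sex. The deposited file is a single matrix in which each cell counts the reads of 1 gene in 1 library, not normalized, for 55487 Ensembl IDs. FastQC, STAR, HTSeq and DESeq2 are named without versions, per the submitters' processing notes. For the counts, genome build, annotation and strand setting were not given in the sources used here; reads of overlapping genes, of antisense genes and of near-identical copies are therefore uncertain. Symbols were found for 55141 gene IDs, and the other 346 hold 0.0391% of counts. No unmapped columns were present. Among 66 pairs of the 12 PND0 controls chi-square per degree of freedom was at least 22.7, so no library was counted as a duplicate. The p-values measure the spread between pups, which may share a litter.

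R 4.3.3 with edgeR 4.0.16 was used: filterByExpr, TMM scaling, robust 2-sided quasi-likelihood F-tests and Benjamini-Hochberg adjustment over all genes tested, with a threshold of 0.05. Log2 CPM for the 4 against the 8 had a prior count of 2 and TMM factors over the 24 PND0 libraries. List sums are CPM of library totals. The exact permutation test used scipy 1.17.1 over 495 arrangements. The members, the 45 gene lists and the tests were chosen with earlier results of these data known. Named genes are the 12 largest differences per direction that do not overlap, with at least 5 CPM in the higher group and without clone, predicted and pseudogene names; up to 4 genes per list with the widest gap; 22 genes always given; and the 4 smallest slope p in each direction. Of 817 list genes, 5 were not found. Some genes that the rule names are left out of the text.

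Alternatives were DESeq2 1.42.0, limma-voom (limma 3.58.1), RLE scaling, library totals without TMM, a prior count of 0.5, other low-count filters, no sex term, a lipid droplet score, and omitting control male replicate 3 (conflicting age labels) or each library in turn. Alternatives without 2 exposed livers, without 4 of the 8 controls, and without exposed male replicate 8 in the age and cadmium comparisons were added after seeing the data. The fits were tested on simulated data. The slope fit, on 17857 genes, found 70.4% of genes changed 2-fold per doubling of the sum and 94.1% changed 4-fold. False calls were 3.51%. Genes were drawn independently there, so the simulation does not bear on false calls from shifts that a liver shares across genes.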

Additional observations from a re-analysis of the deposited data

Results flagged for a closer look

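In 94 groups of sums or totals, 17 had a liver far from the rest of its group. For independent, normally spread groups chance gives about 1 in 20. These groups share livers and genes, so the 17 cannot be set against that rate. Among the 4 low-oxidation livers, control female replicate 19 had the highest total, 83.2 M counts, with the next at 60.6 M, and control male replicate 10 the highest skeletal muscle sum, 10.84 CPM, with the next at 5.973 CPM. The other 15 were all among the 8 other controls.

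Control female replicate 24 held 10 of these. It was highest for the gut list (1114 CPM), fasting and PPARA regulators (5515 CPM), gluconeogenesis and glucagon response (29240 CPM) and mitochondrial uncoupling (3371 CPM). It was also highest for the glucocorticoid response (4454 CPM), immediate early genes (837.1 CPM), growth hormone and IGF (11190 CPM), megakaryocyte, platelet and mast cell genes (800.5 CPM) and endothelial genes (1765 CPM). It was lowest for metal and iron genes, at 28500 CPM. Control male replicate 2 was highest for lipid droplet genes (1920 CPM) and skeletal muscle (1990 CPM). Control female replicate 23 was highest for the unfolded protein and amino acid stress list (3422 CPM), the acute phase list (48340 CPM) and pancreas (396 CPM). The part of these livers in the differences from the 4 was not tested beyond the counts without them.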

How the results depend on the processing

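No paired analysis was possible because replicate numbers are unique across the series and are not shared between groups. Leaving out each of the 12 controls in turn gave 855 to 1442 lower and 811 to 1525 higher genes in the 4, and 193 to 337 lower and 234 to 331 higher by at least 2-fold; the most came without control female replicate 24. A filter of at least 1 CPM on average gave 146 genes higher by at least 2-fold. Without control male replicate 2 and control female replicates 21, 23 and 24 together, 2740 genes were lower and 2889 higher, 674 and 620 of them by at least 2-fold; with fewer livers to overlap with, more genes can separate. RLE scaling gave 868 lower and 747 higher genes, and library totals gave 853 and 688.

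With the oxidation sum, DESeq2 called 1142 genes rising and 897 falling and limma-voom 162 and 85, and a lipid droplet score gave 443 rising; the cause was not tested. Leaving out each exposed liver gave 192 to 908 rising and 92 to 673 falling genes, fewest without exposed male replicate 8, and 341 falling without exposed male replicate 6. Without exposed male replicate 8 and female replicate 18 both counts were 0. Among named genes whose slope passed with all 12 livers, it then changed sign for Aqp8 (1.46) and Slc25a13 (-0.05). Slopes that had not passed changed sign too, among them Apoa5 (1.58 to -2.08) and Cyp1a1 (1.33 to -1.44). For cadmium at PND0, DESeq2 called 638 genes higher and 491 lower, no low-count filter gave 185 and 142, and leaving out the 4 and exposed male replicate 8 gave 363 lower genes. The age counts stayed within 1.5 times of 7117 and 6994 under the alternatives run. The 94 lower genes that rose became 50 with limma-voom, 55 with the lipid droplet score, 42 without exposed male replicate 8 and 0 without both low livers; the 85 higher genes that fell became 30 with limma-voom, 17 and 0 without those livers. Over these counts and the slopes of named genes, 2662 values kept their call, 235 lost it, 58 gained it and 7 moved by over 1.5 times. Another 2, which had passed, changed sign. Slopes that passed in neither fit were counted as kept, also where their sign changed.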
